A study of Mus musculus with 24 samples.

Results

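Uninjured mouse lungs exposed to 2 different antisense oligonucleotides against the same RNA were compared, to see where the effects of the oligonucleotides differ in the absence of injury. The samples were chosen by their labels: 3 arrays of PBS mice given gapmer DNM3OS-3 (gapmer 3) against 3 arrays of PBS mice given gapmer DNM3OS-1 (gapmer 1), that is 6 of the 24 arrays of the series. Each array measured total RNA from the whole lung of a C57BL/6 mouse aged 9 to 12 weeks, with no other genetic change given. A further 3 arrays came from PBS mice given a control gapmer (GP Ctrl), and 5 arrays per oligonucleotide came from mice given bleomycin, a drug that breaks DNA and causes lung injury. No label ties a sample to an animal, and the p-values therefore cover only the spread between the deposited samples. The sources used here do not give dose, route, time point or sex.

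A gapmer is a short single-stranded oligonucleotide with a DNA centre and chemically modified ends. It pairs with a complementary RNA, and RNase H cuts that RNA. The intended target here, Dnm3os, is a long noncoding RNA transcribed from the strand opposite the gene Dnm3, and it is the precursor of microRNAs that have been studied in fibroblasts and tissue scarring. Gapmers designed against one RNA need not act alike elsewhere, which is what the comparison addresses.

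The RefSeq record of Dnm3os (GRCm38.p6, chr1:162217623-162225550) contains the hairpins of 2 microRNA genes, Mir199a-2 and Mir214. Their 4 mature products are shown because the target list described later was drawn up for them; the seed, bases 2 to 8, is in capitals, and no 2 of the seeds are identical.
mmu-miR-199a-5p (chr1:162217844-162217866, plus strand): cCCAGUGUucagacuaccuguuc
mmu-miR-199a-3p (chr1:162217883-162217904, plus strand): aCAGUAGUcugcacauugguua
mmu-miR-214-5p (chr1:162223397-162223418, plus strand): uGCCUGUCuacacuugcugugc
mmu-miR-214-3p (chr1:162223438-162223459, plus strand): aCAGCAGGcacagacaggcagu

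Values are log2 intensities, so a difference of 1 is a 2-fold difference. Across all arrays they ran from 5.03 to 18.25, and one array feature, the brightest, was used for each of 20728 named genes. Values at the top of this range, such as those of Sftpc and Scgb1a1, could hardly show a difference. The lung label was borne out by the markers: Sftpc, the surfactant protein of alveolar type 2 cells, was at 17.94 or more on the 9 PBS arrays, Scgb1a1 of club cells between 17.93 and 18.25, Ager of alveolar type 1 cells between 14.02 and 14.72, and the endothelial gene Pecam1 between 10.34 and 11.07. RNA integrity numbers were 8.5, 9.4 and 9.2 with gapmer 1 and 9.8, 9.3 and 9.8 with gapmer 3.

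The 3 gapmer 3 arrays did not form one tight group. A score was computed for each list of marker genes as the mean over its members of the log2 value minus the mean of the PBS control arrays. For squamous epithelium, a tissue that lines the oesophagus and not the alveoli, the score was 1.99 to 2.51 on the gapmer 1 arrays, and 2.44, -1.12 and 0.34 on gapmer 3 replicates 1, 2 and 3. The control arrays ranged from -1.19 to 0.91. The squamous keratin Krt13 was 13.60, 14.60 and 13.55 with gapmer 1 but 14.74, 5.64 and 10.64 with gapmer 3, so replicate 1 resembled the gapmer 1 arrays and replicate 2 lay near the lowest values on any array. Skeletal muscle genes were low on gapmer 3 replicate 2 alone, with a score of -3.90 against -0.36 and 0.56 on the other gapmer 3 arrays and -0.70 to -0.62 with gapmer 1. Tnnc2, a fast muscle troponin, was 6.80 there and 14.55 or more on the other 5 gapmer arrays. Adipose genes scored -0.80 to 0.01 with gapmer 1 and -1.59 to -0.69 with gapmer 3, and Ucp1 of brown fat was 11.86, 11.27 and 10.75 against 10.06, 5.85 and 7.09. On gapmer 3 replicate 1, 8 genes stood more than 16-fold above every other array of the series, Tdpoz1, Sohlh1, Rsbn1 and Il4 among them. Rsbn1 and Il4 were named after their values were seen. Bleomycin gapmer 3 replicate 1 also had 8 such genes. These are values of the brightest feature only. On the PBS array Il4 read 14.32 on 1 of 10 features and 6.25 to 7.12 on the others. Tdpoz1 read 14.86 there and 5.34 on its other feature. Sohlh1 and Rsbn1 have 1 feature each. The 5 genes with the largest SD over the 6 gapmer arrays were Tdpoz1, Lce3a, Tescl, Sohlh1 and Crct1, and none of the 5 passed the test. The part of these tissue differences in the results below was not tested except where a value is given.

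**Figure D1:**
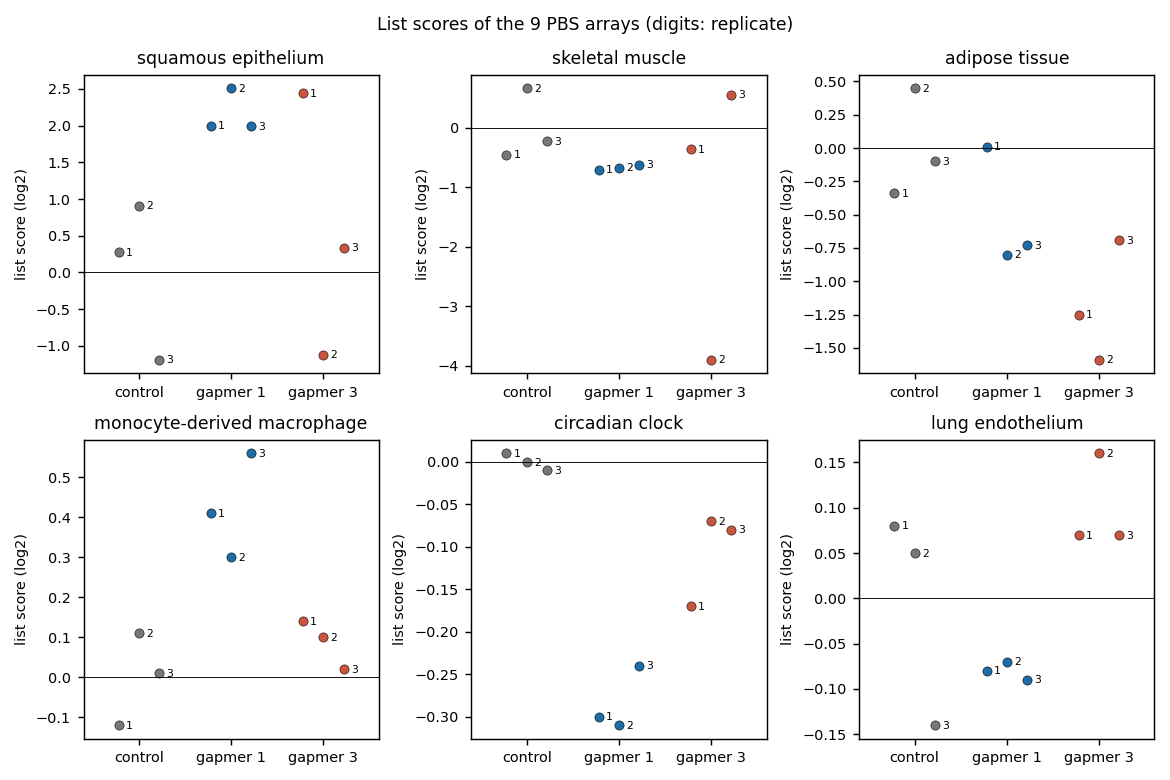
List scores (log2, vertical axes) of the 9 PBS arrays in 6 panels, one per gene list, with one point per array grouped by control gapmer, gapmer 1 and gapmer 3; the digit is the replicate and 0 is the mean of the control arrays. For squamous epithelium gapmer 3 replicate 1 (2.44) sits among the gapmer 1 arrays (1.99 to 2.51), and for skeletal muscle gapmer 3 replicate 2 (-3.90) sits below all others.

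The target RNA itself did not separate the gapmers. Dnm3os lay at 5.76, 5.85 and 6.06 on the gapmer 1 arrays and at 6.12, 6.22 and 5.95 on the gapmer 3 arrays, with 6.37, 6.27 and 6.39 on the control arrays. On this feature, the brightest of 3, the gapmer groups overlapped each other, and all 6 gapmer arrays were below the lowest control array. Gapmer 3 minus gapmer 1 was 0.21 (SE 0.14, 95% interval -0.08 to 0.49, n = 3 against 3, limma adjusted p = 0.763; two-sided exact permutation p = 0.2, where 0.1 is the smallest that 3 against 3 allow). On the other 2 features of Dnm3os the gapmer 1 arrays overlapped the control arrays. The gapmer 3 arrays lay just below every control array on the last feature given here and overlapped control on the other. One read 5.88, 5.78 and 5.88 with gapmer 1, 5.48, 5.97 and 5.67 with gapmer 3 and 5.86, 5.90 and 5.80 with control, and the other read 6.05, 5.71 and 5.81, then 5.74, 5.70 and 5.70, then 5.78, 5.80 and 5.93. Both had a difference between the gapmers of -0.14, with two-sided exact permutation p = 0.4 and p = 0.2. Means of the brightest feature were below 6.11 with both gapmers, the 25th percentile of mean levels over genes, where a further fall could hardly be seen. Dnm3, on the opposite strand, was 8.06, 7.21 and 7.72 with gapmer 1 and 7.36, 7.40 and 7.28 with gapmer 3, a difference of -0.31 that did not pass (limma adjusted p = 0.828).

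Across the whole array 12 of 20728 genes (0.0579%) differed between the gapmers at a limma adjusted p under 0.05, 3 higher (0.0145%) and 9 lower (0.0434%) with gapmer 3. The 3 higher genes were Spag11b, Per1 and Riox1. The 9 lower genes were Ptprs, the noncoding RNA 4833418N02Rik, Krtap17-1, Sdk1, Trem2, Itgax, Ctss, F7 and Fxyd4. In all 12 the gapmer 3 arrays lay on one side of the gapmer 1 arrays; over all genes tested the groups did not overlap for 8.52% in the higher and 5.98% in the lower direction. At an unadjusted p under 0.05 there were 1890 genes (9.12%). The median difference over all genes was 0.0099, and the median half-width of an unadjusted 95% interval was 0.24. For a typical gene smaller differences could not be told from 0 even before adjustment, and a call needed a larger one. The smallest size among the called genes was 0.44. The number of calls rested heavily on single arrays: it was 253 without gapmer 3 replicate 1, 27 without gapmer 1 replicate 2, 6 without gapmer 3 replicate 2 and 5 without gapmer 3 replicate 3. It also rested on the spread estimated with the bleomycin arrays. With only the 9 PBS arrays in the fit, 2 genes were called, Ptprs and Spag11b.

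**Figure D2:**
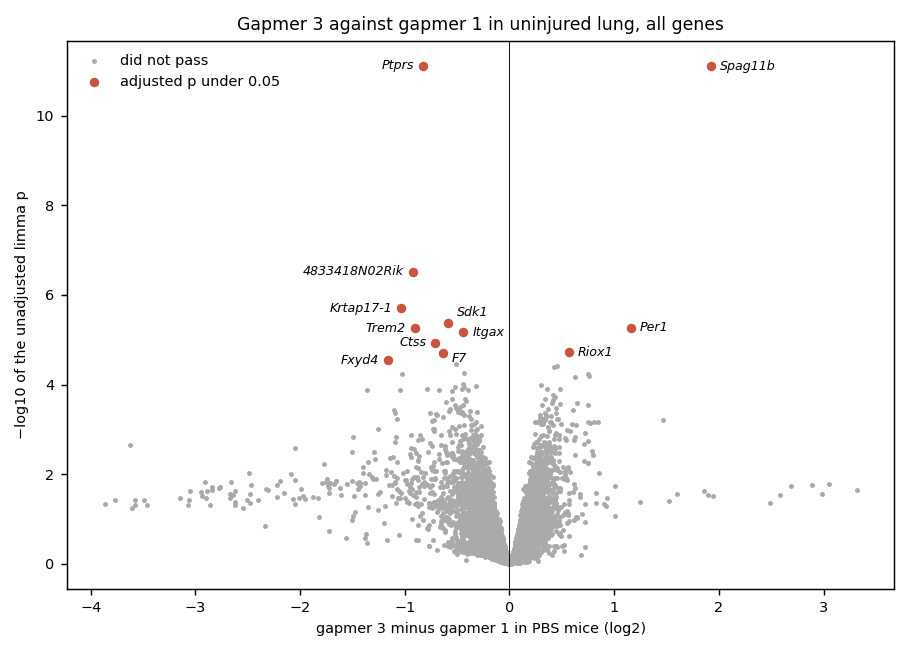
Each point is 1 of 20728 genes: horizontal axis, gapmer 3 minus gapmer 1 in PBS mice (log2, 3 against 3 arrays); vertical axis, -log10 of the unadjusted limma p. The 12 named genes have an adjusted p under 0.05, and Ptprs and Spag11b stand apart from the other 10; the many grey points with large differences and small vertical values are genes with a wide spread between arrays.

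Ptprs and Spag11b were the clearest differences, and they ran opposite ways. Ptprs encodes the receptor-type tyrosine phosphatase sigma, which binds heparan and chondroitin sulfate proteoglycans at the cell surface. It read 13.36, 13.32 and 13.42 with gapmer 1, 12.56, 12.48 and 12.58 with gapmer 3, and 13.29, 13.25 and 13.44 with the control gapmer. Only the gapmer 3 arrays were low, and each group was tight. Ptprs was 1.78-fold lower with gapmer 3 than with gapmer 1 (log2 -0.83, SE 0.06, limma adjusted p = 7.96e-08), and the fall against control was -0.79 (limma adjusted p = 4.0e-07). Gapmer 1 minus control was 0.04 (limma adjusted p = 0.80). The array has 1 feature for this gene.

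Spag11b, a gene for a secreted defensin-like protein known from the epididymis, rose. Its values were 7.66, 7.83 and 7.73 with gapmer 1, 9.61, 9.52 and 9.85 with gapmer 3, and 8.21, 8.18 and 8.06 with control. All 3 gapmer 3 arrays were above every other PBS array, and the gapmer 1 arrays were below the control arrays. The rise over gapmer 1 was 3.79-fold (log2 1.92, SE 0.14, limma adjusted p = 7.96e-08) and over control 1.51 on the log2 scale (limma adjusted p = 7.2e-06). A second feature of Spag11b read 7.28, 7.49 and 7.71 against 9.38, 9.08 and 9.54, also without overlap. The related gene Spag11a, named after its values were seen, was dim and differed by 0.21 (limma adjusted p = 0.493).

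Next came 3 lower genes with no shared list. The noncoding RNA 4833418N02Rik was 8.35, 8.63 and 8.82 with gapmer 1, against 7.66, 7.83 and 7.55 with gapmer 3 and 7.65, 7.61 and 7.62 with control. Here the gapmer 1 arrays were the high ones, 1.89-fold above gapmer 3 (log2 -0.92, SE 0.13, limma adjusted p = 0.00207) and 0.97 above control (limma adjusted p = 0.0013). Krtap17-1, a keratin-associated protein of the hair shaft, was 10.39, 9.89 and 10.25 with gapmer 1 and 9.26, 9.33 and 8.84 with gapmer 3. It fell by 1.04 on the log2 scale (SE 0.16, limma adjusted p = 0.0103), and the control arrays, at 9.99, 9.73 and 10.00, lay above all 3 gapmer 3 arrays. Sdk1, a cell adhesion molecule of the immunoglobulin family, was 8.22, 8.08 and 8.24 against 7.67, 7.61 and 7.50 (log2 -0.59, SE 0.10, limma adjusted p = 0.0164). Its control arrays, at 7.99, 7.73 and 7.75, lay between the gapmer groups.

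Trem2, Itgax and Ctss are described together because macrophages are known to express them; they were put together after the calls were seen. Trem2 is on the monocyte-derived macrophage list and Itgax on the alveolar macrophage list, while Ctss is on no list used here. Trem2, a lipid-sensing receptor of macrophages, was 11.17, 10.76 and 11.49 with gapmer 1, 10.38, 10.33 and 10.01 with gapmer 3, and 9.94, 9.95 and 9.98 with control. It was 1.87-fold lower with gapmer 3 (log2 -0.90, SE 0.15, limma adjusted p = 0.0164). The gapmer 1 arrays were the ones farther from control (difference 1.19, limma adjusted p = 0.0013). The gapmer 3 arrays also lay above every control array, a difference that was not called. Itgax, which encodes the integrin CD11c of dendritic cells and alveolar macrophages, was 12.62, 12.43 and 12.53 against 12.17, 12.16 and 11.93 (log2 -0.44, SE 0.07, limma adjusted p = 0.0178), with control arrays at 12.08, 12.22 and 12.02. Ctss, the lysosomal protease that trims the invariant chain of MHC class II, was 14.90, 14.91 and 15.38 against 14.39, 14.44 and 14.24 (log2 -0.71, SE 0.12, limma adjusted p = 0.0267). Its control arrays, at 14.48, 14.60 and 14.76, lay above the gapmer 3 arrays and below the gapmer 1 arrays. With whole lung RNA, fewer cells of a type and less RNA per cell cannot be told apart. With the squamous score as a covariate, chosen after seeing the data, the differences kept about their size, -1.0 for Trem2, -0.43 for Itgax and -0.75 for Ctss, with limma adjusted p = 0.0295, 0.0644 and 0.0533. With the RNA integrity number as a covariate they were -0.87, -0.42 and -0.70, and none of the 3 passed (limma adjusted p = 0.0678, 0.0792 and 0.0908). None of the 3 passed with only the 9 PBS arrays in the fit either (limma adjusted p = 0.323, 0.441 and 0.348).

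Of the 18 measured genes of a monocyte-derived macrophage list, Trem2 was the 1 called, and 17 had a lower mean with gapmer 3. The median difference of the list was -0.27 beside 0.0099 over all genes. In 9 of the 18, Trem2 among them, every gapmer 3 array lay below every gapmer 1 array, as for 5.98% of all genes. List scores were 0.30 to 0.56 with gapmer 1, 0.02 to 0.14 with gapmer 3 and -0.12 to 0.11 with control. Gpnmb, a glycoprotein of lipid-laden macrophages named after its values were seen, differed by -0.58 (limma adjusted p = 0.274), and Itgam, the CD11b integrin, was the member on the other side at 0.09. The alveolar macrophage list had 16 measured genes and a median of -0.06; Itgax was its only call. Marco, a scavenger receptor that marks alveolar macrophages, was 12.48, 12.28 and 12.29 with gapmer 1 and 13.17, 13.11 and 12.90 with gapmer 3, a difference of 0.71 that did not pass (limma adjusted p = 0.302), and Siglecf differed by -0.03. Of 17 antigen presentation genes none was called, and the median was -0.10, with H2-DMb1 at -0.30 and H2-Ab1 at -0.24. Just outside the threshold was Clec7a, the beta-glucan receptor of myeloid cells, at -0.51 (limma adjusted p = 0.055). Olfr875 and Kbtbd8, higher with gapmer 3 by 0.45 and 0.43, had the same limma adjusted p of 0.055. Clec7a, Olfr875 and Kbtbd8 were named after their values were seen.

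**Figure D3:**
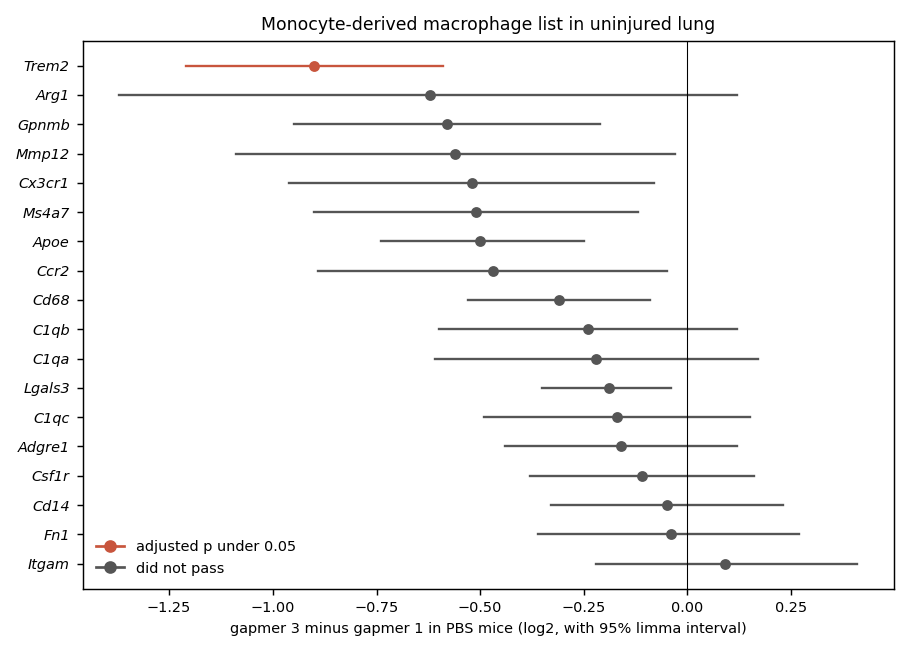
Gapmer 3 minus gapmer 1 in PBS mice (log2, horizontal axis) for the 18 genes of the monocyte-derived macrophage list, with 95% limma intervals (3 against 3 arrays). Trem2 (-0.90) is the 1 gene past the threshold; 17 points lie left of 0 and Itgam (0.09) lies right of it.

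Per1 had the largest rise after Spag11b among the called genes. It encodes a repressor in the feedback loop of the circadian clock and is also induced by glucocorticoids. Per1 was 12.89, 12.41 and 13.19 with gapmer 1, 13.96, 14.10 and 13.90 with gapmer 3, and 14.21, 14.06 and 14.06 with control. Gapmer 3 arrays were close to control and gapmer 1 arrays were low, a 2.23-fold difference between the gapmers (log2 1.16, SE 0.19, limma adjusted p = 0.0164) and -1.28 for gapmer 1 against control (limma adjusted p = 0.0043). A second, dim feature of Per1 did not differ in this way, at 6.23, 6.08 and 6.35 with gapmer 1 and 6.10, 6.29 and 6.12 with gapmer 3 (difference -0.05), and with the mean of both features the difference was 0.55 (limma adjusted p = 0.117). With the squamous score as a covariate the difference was 1.12 (limma adjusted p = 0.0579). With only the 9 PBS arrays in the fit Per1 did not pass (limma adjusted p = 0.198). Per1 passed in 3 of the 6 fits that left out 1 array; it did not without gapmer 1 replicate 2 (limma adjusted p = 0.0537) and without gapmer 3 replicate 2 or replicate 3 (limma adjusted p up to 0.0851). Of 17 measured clock genes Per1 was the 1 called, 14 had a higher mean with gapmer 3, and the median was 0.18. Per2, the partner repressor, was 9.05, 8.57 and 8.67 against 9.24, 9.13 and 9.38 (difference 0.49, limma adjusted p = 0.152). Dbp, an output gene of the clock, differed by 0.20 and Nr1d1 by 0.07. Per2, Dbp and Nr1d1 were named after their values were seen. Clock scores were -0.31 to -0.24 with gapmer 1, -0.17 to -0.07 with gapmer 3 and -0.01 to 0.01 with control, with no overlap between the 3 groups. The score includes Per1 itself, which was already called, and a score without Per1 was not computed. The time of day of sampling is not known here. Of 15 glucocorticoid response genes Per1 was again the 1 called, 11 had a higher mean with gapmer 3, and the median was 0.14. The gapmer groups did not overlap in 6 with a higher level, Per1 among them, and in 1 with a lower level. Over all genes these shares were 8.52% and 5.98%.

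Clock proteins and their repressors act through the E-box CACGTG, and Per1 has 2 annotated start sites. The window from 250 bases before to 50 bases after its upstream start holds 1 match, shown in capitals; the window at the downstream start (chr11:69099902-69100201) holds none. The motif is its own reverse complement, so a match counts for both strands, and 7.15% of 32851 such windows in the RefSeq promoter table hold it. A match is a description of these letters only.
Per1 upstream start (GRCm38.p6, chr11:69098699-69098998, plus strand): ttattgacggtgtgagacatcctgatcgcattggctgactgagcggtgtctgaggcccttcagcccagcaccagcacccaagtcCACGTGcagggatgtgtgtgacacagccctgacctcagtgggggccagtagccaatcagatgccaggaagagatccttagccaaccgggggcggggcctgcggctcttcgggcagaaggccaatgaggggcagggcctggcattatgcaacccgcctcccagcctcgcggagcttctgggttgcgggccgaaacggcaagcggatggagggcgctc

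Riox1, F7 and Fxyd4 complete the 12. Riox1, a ribosomal oxygenase of the JmjC family, was 10.09, 10.21 and 10.10 with gapmer 1 and 10.84, 10.67 and 10.58 with gapmer 3 (log2 0.56, SE 0.10, limma adjusted p = 0.0373), while the control arrays, at 10.65, 10.52 and 10.15, spanned the gap. F7, coagulation factor VII, was 10.28, 10.11 and 10.30 against 9.62, 9.64 and 9.52 (log2 -0.63, SE 0.12, limma adjusted p = 0.0373), and a second feature of F7 also separated the groups, at 10.05, 10.00 and 9.92 against 9.59, 9.41 and 9.28. Fxyd4, a small regulator of the sodium pump, was 9.29, 8.97 and 9.26 against 8.36, 7.86 and 7.81 (log2 -1.16, SE 0.22, limma adjusted p = 0.0497). For both F7 and Fxyd4 the control arrays sat with gapmer 3, and gapmer 1 was above control by 0.58 (limma adjusted p = 0.024) and 1.12 (limma adjusted p = 0.022).

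**Figure D4:**
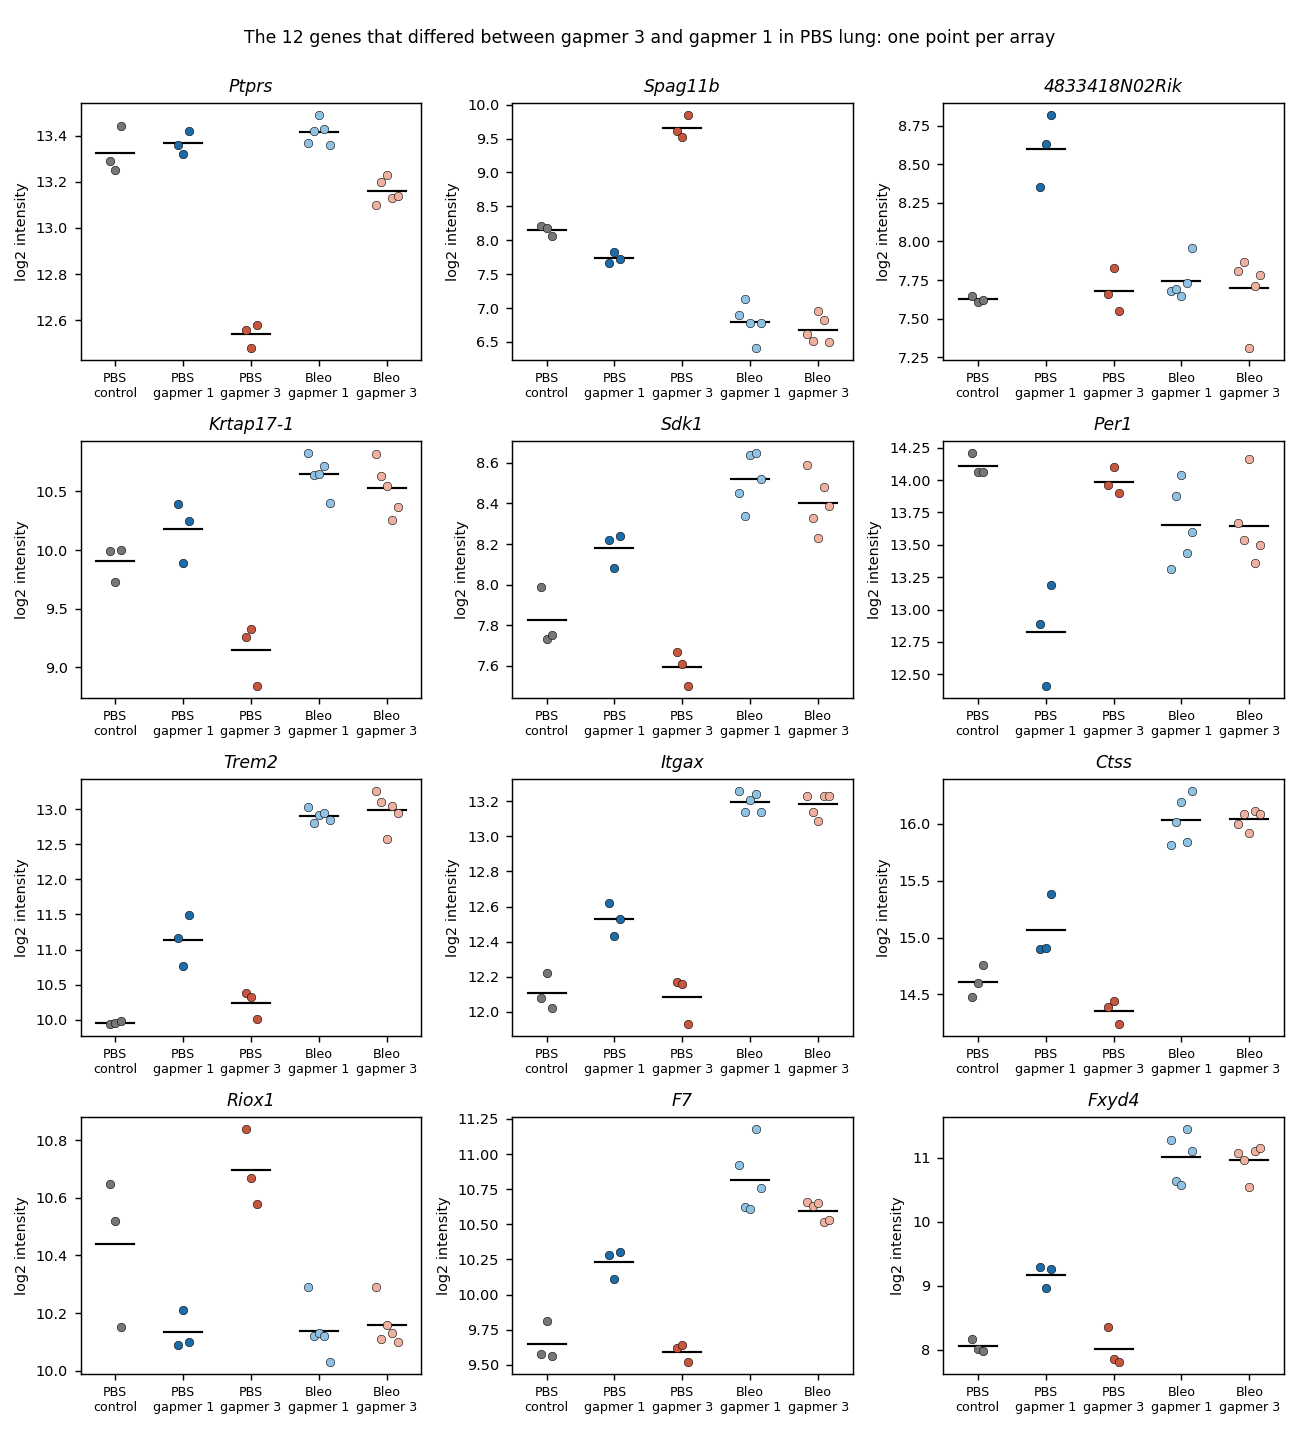
Log2 intensity (vertical axes) of the 12 genes in 5 groups, one point per array, with a bar at each group mean: PBS mice with control gapmer, gapmer 1 or gapmer 3 (3 arrays each) and bleomycin mice with gapmer 1 or gapmer 3 (5 arrays each). In every panel the PBS gapmer 1 and gapmer 3 points do not overlap. Ptprs and Spag11b lie farther from control in the gapmer 3 arrays, and Per1, Trem2, F7 and Fxyd4 in the gapmer 1 arrays. For Trem2 the gapmer 3 points also lie above the control points.

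Set beside the control gapmer, the 12 genes fell into different patterns. These comparisons share arrays with each other and with the main comparison, so their values are given side by side only. Against control 230 genes (1.11%) were called with gapmer 1, a count that ran from 10 to 684 when 1 of its 6 arrays was left out, and 7 genes (0.0338%) with gapmer 3, which ran from 2 to 30. Of the 12, gapmer 1 differed from control in 6 (4833418N02Rik, Per1, Trem2, Itgax, F7 and Fxyd4), gapmer 3 differed in 2 (Ptprs and Spag11b), and neither passed in 4 (Krtap17-1, Sdk1, Ctss and Riox1).

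The same oligonucleotides were compared in bleomycin mice, where no array is shared with the PBS comparison. There no gene of 20728 (0%) was called by limma, and 838 (4.04%) had an unadjusted p under 0.05, with 5 arrays per group. None of the 12 genes was called, and their largest size of difference was 0.25. The 12 were picked for their difference in PBS mice, where the smallest size was 0.44, so this is a description only and no test of a smaller effect. Ptprs was the 1 gene of the 12 whose bleomycin groups did not overlap, as was the case for 0.598% of all genes in the lower direction. It ran from 13.36 to 13.49 (median 13.42) with gapmer 1 and from 13.10 to 13.23 (median 13.14) with gapmer 3, a difference of -0.25 (limma adjusted p = 0.28). Spag11b had medians of 6.78 with gapmer 1 and 6.62 with gapmer 3, and the gapmer 3 arrays lay within the range of the gapmer 1 arrays, 6.41 to 7.13.

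Whether the difference between the gapmers itself differed between injured and uninjured lung was tested as an interaction. It passed for 2 of 20728 genes (0.00965%), Ptprs and Spag11b. For Ptprs the difference in bleomycin mice minus that in PBS mice was 0.58 (SE 0.08, limma adjusted p = 0.0029), so the lower level with gapmer 3 was smaller after bleomycin. For Spag11b it was -2.04 (SE 0.18, limma adjusted p = 4.3e-06), and the rise seen in PBS mice was not seen after bleomycin. Spag11b was lower in bleomycin mice with every oligonucleotide, with means of 6.8 with gapmer 1, 6.68 with gapmer 3 and 6.37 with control. All these arrays were below the lowest PBS array, at 7.66. Whether the low level hid a difference was not tested. For Per1 the interaction was -1.17 and for Trem2 0.98, and neither passed (limma adjusted p = 0.30 and 0.18). For comparison, Trem2 ran from 12.57 to 13.26 on the 10 gapmer arrays of bleomycin mice and from 10.01 to 11.49 on those of PBS mice.

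**Figure D5:**
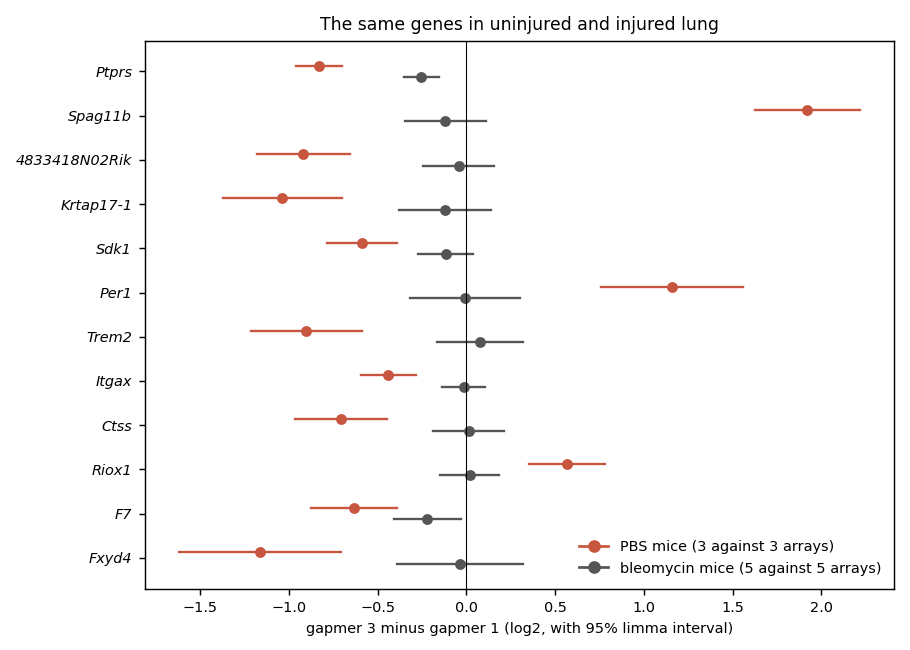
Gapmer 3 minus gapmer 1 (log2, horizontal axis) for the 12 genes in PBS mice (red, 3 against 3 arrays) and in bleomycin mice (grey, 5 against 5 arrays), with 95% limma intervals. The 12 were picked for their PBS difference, so their PBS points lie far from 0 by choice; Ptprs (-0.25) and F7 (-0.22) are the bleomycin points whose intervals do not reach 0.

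Genes tied to Dnm3os and its microRNAs did not pass the test. Of 16 measured genes described as targets of those microRNAs none was called, 13 had a higher mean with gapmer 3, and the median was 0.12. Ptgs2, the inducible cyclooxygenase, was 8.13, 8.29 and 8.63 against 9.04, 8.93 and 8.63 (difference 0.52, limma adjusted p = 0.342). The caveolae genes Cav1 and Cav2 differed by 0.27 and 0.24, the kinase gene Gsk3b by 0.13, and the growth factor genes Fgf7 and Hgf by 0.08 and 0.18. Among 14 genes of the Dnm3os locus and mesenchymal regulators, also with none called, the lung fibroblast factor Tcf21 was 11.39, 10.88 and 11.14 against 11.81, 12.10 and 12.03 (difference 0.84, limma adjusted p = 0.144). Foxf1, a factor of lung mesenchyme, differed by 0.39 (limma adjusted p = 0.405).

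Matrix genes had lower means with gapmer 3, without any single call. In the extracellular matrix list 33 of 39 measured genes were lower and the median was -0.18; scores were 0.07 to 0.23 with gapmer 1, -0.13 to 0.00 with gapmer 3 and -0.12 to 0.07 with control. Mmp2, the gelatinase, was 11.27, 11.01 and 11.54 against 10.79, 10.68 and 10.51 (difference -0.61, limma adjusted p = 0.121). Lum, the collagen-binding proteoglycan lumican, differed by -0.55 (limma adjusted p = 0.269), and Col1a1 was 13.36, 13.10 and 13.37 against 13.04, 12.85 and 12.73 (difference -0.40, limma adjusted p = 0.459). The smooth muscle actin gene Acta2 differed by 0.06, a sign that turned with the RNA integrity number as a covariate (-0.01). In the TGF-beta and BMP list none of 24 was called and the median was 0.06; Ltbp2, a latent TGF-beta binding protein, differed by -0.49.

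Endothelial genes mostly had higher means and alveolar type 2 genes lower means with gapmer 3. Of 20 lung endothelium genes 18 had a higher mean with gapmer 3, with a median of 0.17 and no call. In 9 of them the groups did not overlap, as for 8.52% of all genes in the higher direction. Tek, the angiopoietin receptor, was 10.91, 10.94 and 10.87 against 11.21, 11.36 and 11.21 (difference 0.35, limma adjusted p = 0.256), and Plvap, of fenestral diaphragms, differed by 0.34. Of 15 alveolar type 2 genes 14 had a lower mean, with a median of -0.14 and no call. In only 1 of the 15 did every gapmer 3 array lie below every gapmer 1 array, beside 5.98% of all genes. List scores overlapped, at 0.25 to 0.33 with gapmer 1 and -0.05 to 0.29 with gapmer 3. The 2 genes with the smallest p, Scd1 and Fabp5, are lipid genes. Scd1 was 15.55, 15.24 and 15.29 against 15.24, 14.09 and 15.26, so gapmer 3 replicate 2 alone was low, and the difference of -0.49 was -0.10 without that array. Fabp5 was 15.20, 15.73 and 15.51 against 15.47, 14.74 and 14.92, with the groups overlapping, and the difference of -0.44 was -0.21 with the squamous score as a covariate.

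The lists described next, for known reactions to oligonucleotides and for stress, had no called member, and their medians stand beside 0.0099 over all genes. Nucleic acid sensing and RNase H genes (25 measured) had a median of 0.01 and none called; Tlr7, the endosomal sensor of single-stranded RNA, was 9.21, 8.82 and 8.84 against 8.45, 8.64 and 8.51 (difference -0.43, limma adjusted p = 0.434), and Stab2, a scavenger receptor that takes up oligonucleotides, differed by -0.38. Interferon response genes (27 measured) also had a median of 0.01 and none called, with Cxcl9 at -0.95, where 1 gapmer 1 array read 9.28, and Ifit1 at 0.21. Among 19 p53 targets (median -0.02, none called) Cdkn1a, the cell cycle inhibitor p21, was 11.33, 11.48 and 11.39 against 11.33, 10.65 and 10.43, so gapmer 3 replicate 1 alone matched the gapmer 1 arrays; the difference was -0.60 (limma adjusted p = 0.281). Gdf15, a stress cytokine, differed by -0.61. The immediate early factor Klf4 was 11.65, 12.03 and 12.25 against 13.16, 12.32 and 12.88 (difference 0.81, limma adjusted p = 0.144), within a list whose median was 0.03. In the unfolded protein and heat shock list 14 of 17 measured genes had a higher mean with gapmer 3 (median 0.10, none called). There the stress factor Atf4 differed by 0.33 and its inhibitor Trib3 by -0.39. In all, 37 of 41 lists had no called member, and list medians ran from -1.47 (squamous epithelium) to 0.28.

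Leaving out gapmer 3 replicate 1 changed the picture most. The 253 genes then called (1.22%) comprised 19 higher and 234 lower with gapmer 3, and included all 12 genes above. Of the 18 squamous genes 8 were called lower, with a list median of -2.46, where none was called with all arrays. Among the genes with the smallest p were epithelial genes, named after their values were seen: Defb6, a beta-defensin, at -1.56, S100a14 at -2.33, and Tgm1, the transglutaminase that crosslinks the cornified envelope, at -1.68. For Tgm1 the left-out array read 8.83, beside a mean of 8.74 with gapmer 1, 7.07 on the other gapmer 3 arrays and 7.34 with control. Among the 19 p53 targets 3 were called, all lower: Perp, also a gene of epithelial cell junctions and named after its values were seen, at -1.51 (limma adjusted p = 0.00407), Cdkn1a at -0.86 (0.00811) and Gdf15 at -0.81 (0.0218). With all arrays none of the 3 passed (limma adjusted p = 0.406, 0.281 and 0.24). For these 3 the left-out array read 13.63, 11.33 and 8.5, beside gapmer 1 means of 13.4, 11.4 and 8.71. Among the 15 glucocorticoid response genes 2 were called, Per1 higher and the metallothionein gene Mt2, named after its values were seen, lower at -0.96 (limma adjusted p = 0.0158). Mt2 did not pass with all arrays (limma adjusted p = 0.296), and the left-out array read 13.94, beside a gapmer 1 mean of 14.06. No other list had more than 1 called member.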

How the data were processed

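Per the labels, Cy3-labelled whole-lung RNA was hybridised to 1-colour Agilent arrays. The deposited values are log2 intensities; that they were quantile-normalised is read from the values (array medians 6.485 to 6.495), and limma, without a version, is named in the submitters' processing notes. Background correction is not given in the sources used here. Of 62976 features 31465 carried 1 gene symbol, brought to current names with RefSeq for GRCm38.p6. Each gene was represented by its brightest feature, dim genes included.

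The main test was limma 3.58.1 (R 4.3.3), a single two-sided fit to 6 group means over the 24 arrays (18 residual and 3.26 prior degrees of freedom), with Benjamini-Hochberg adjustment over 20728 genes. An adjusted p under 0.05 was called. The fit was tested on simulated data. The number of arrays limits the precision. Lists were described by counts and medians, without a test. The 4 mature miRNA and the promoter sequences are from RefSeq.

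The samples compared, lists and naming rule were chosen with earlier results of these data known. Named genes are a fixed set (Dnm3os, Dnm3, Gsk3b, Ptgs2, Cav1, Fgf7, Hgf, Col1a1, Acta2), all called genes, up to 4 called members of a list described or, with none, its 2 with the smallest p, the 5 with the largest SD over the 6 arrays, marker genes, and others said to be chosen later. Alternatives were other scalings, filters, feature choices, variance priors, array weights, arrays in the fit, the RNA integrity number, a replicate block, a position trend, and each array left out. The squamous and skeletal muscle scores as covariates were added after seeing the data. Tables and plots were made with Python 3.11.15, pandas 2.3.3, NumPy 2.4.6, SciPy 1.17.1 and matplotlib 3.10.9.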

Additional observations from a re-analysis of the deposited data

Results flagged for a closer look

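Ptprs and Spag11b were marked because their gapmer difference differed between bleomycin and PBS mice, by 0.58 and -2.04 on the log2 scale. For 4833418N02Rik 1 bleomycin gapmer 1 array read 7.96 beside 7.73 for the next, farther from its group than Dixon's limit for 5 samples allows; 26 groups were tested in this way, and chance marks about 1 in 20. Among the 31511 features with no gene symbol here, controls included, 14 (0.0444%) were called between gapmer 3 and gapmer 1 in PBS mice, 2 higher and 12 lower; the one with the smallest p differed by -1.29 (limma adjusted p = 1.4e-07), from a mean of 6.81 with gapmer 1 to 5.52, beside 5.55 with control.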

How the results depend on the processing

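The count of 12 between the gapmers in PBS mice stayed between 10 and 15 with another quantile normalisation, median centring, without dim genes, with other feature choices, variance priors, the replicate block (14) or the squamous score as a covariate (10). It was 161 with array weights, 27 with a position trend removed, 19 with the skeletal muscle score, 5 with the RNA integrity number as a covariate, 2 with only the 9 PBS arrays and 1 with only the 2 groups compared; leaving out 1 array gave 5 to 253. The interaction count of 2 was 8 with array weights and 2 to 12 without 1 array. Gapmer 1 against control (230) gave 732 with array weights, 424 with the RNA integrity number, 423 with the replicate block, 68 with only the 2 groups, 0 with only the 9 PBS arrays (3145 genes at an unadjusted limma p under 0.05) and 10 to 684 without 1 array. Gapmer 3 against control (7) gave 4 with the RNA integrity number, 2 with the 9 PBS arrays, 1 with only the 2 groups and 2 to 30 without 1 array. The bleomycin count was 0 under all 22 alternatives, with 557 to 2474 genes at an unadjusted limma p under 0.05.

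Over 21 alternatives none of the 12 genes changed sign. Spag11b passed in 21, Ptprs in 20 (adjusted p = 0.0824 with only the 2 groups), 4833418N02Rik in 19, Krtap17-1 in 17 and the others in 10 to 14. The Dnm3os difference was -0.02 with the mean of its features. Signs also turned for Acta2 with the RNA integrity number (-0.01) and without 1 array (-0.03 to 0.13), for Crct1 (0.39) and Lce3a (0.56) with the squamous score, and for Tescl without gapmer 1 replicate 3 (0.04, from -4.38 to 0.04 without 1 array); the cause was not tested. Of 820 list medians 19 moved by more than the spread between arrays.

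No pairing by replicate number was seen in the PBS samples. Deviations of same-numbered gapmer 1 and 3 arrays correlated at -0.05, -0.20 and 0.02, and differently numbered ones at -0.17 to 0.23. Few pairs were available, and a batch or day shared between arrays was not tested. In bleomycin mice same-numbered arrays correlated at 0.17, -0.01, 0.16, -0.02 and 0.16, and differently numbered ones at -0.25 to 0.22. Dim genes such as Dnm3os are limited by signal near the floor.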
